A study of Homo sapiens with 32 samples.

Results

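Expression of 46 genes that encode subunits of the SWI/SNF complexes, other than their 2 alternative ATPases, and further chromatin remodelers was followed in 2 human lung cancer lines. Members were chosen by name, as the genes whose array symbol, current or older, is a SWI/SNF subunit or an ATPase or large subunit of the ISWI, CHD, INO80 or related SNF2 families. They make up 46 of the 19775 genes with a symbol, 28 of them SWI/SNF subunits and 18 other remodelers, and are read by 138 probe sets, of which 112 were bright enough to be tested. All 46 had a probe set with log2 intensity over 5 in at least 3 of the 32 arrays. For BCL11B and ACTL6B, no H1299 array reached that level, so they passed through A549 alone.

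Both lines, H1299 and A549, are known to lack functional SMARCA4 and to rely on SMARCA2, its paralog. Stable cells carried either S2sh7, a short hairpin RNA (shRNA) aimed at the ATPase domain of SMARCA2, or shLuc, a hairpin against luciferase that serves as control. Each of these also carried a cDNA for green fluorescent protein (GFP) or for a SWI/SNF ATPase, which was SMARCA2 in the H1299 cells and SMARCA4 in the A549 cells, in wild-type form (WT), with a mutated bromodomain (BRD) or with a dead ATPase (ATPdead). Each of the 8 H1299 groups had 3 arrays and each of the 8 A549 groups had 1, with no further treatment. H1299 arrays are labelled biological replicates, but the labels do not name separate cultures or infections, so p-values measure the spread between these samples only. The labels put all H1299 arrays in 1 batch and all A549 arrays in another, so line and batch cannot be told apart. Precision is limited by how many arrays each comparison has.

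SWI/SNF complexes use ATP to slide or evict nucleosomes. Their subunits include core scaffold proteins (SMARCC, SMARCD, SMARCB1, SMARCE1) and an ATPase module (an ATPase with ACTL6, BCL7 and SS18 proteins). The complexes exist in several forms. BAF carries ARID1A or ARID1B with a DPF protein, PBAF carries ARID2, PBRM1, BRD7 and PHF10, and the non-canonical form ncBAF carries BRD9 with BICRA or BICRAL. ISWI enzymes space nucleosomes, CHD enzymes include the motors of the NuRD deacetylase complex (CHD3 and CHD4), and INO80, SRCAP and EP400 exchange histone variants. Several subunits are alternative paralogs that compete for a place in the complex, and SWI/SNF genes are among the commonly mutated genes of lung cancer.

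The SMARCA2 probe set with the highest mean over all arrays was lower with S2sh7 in each group. It had group means of 32.5 to 39.0 with S2sh7, against 78.2 to 87.9 with shLuc, in H1299. In A549 it read 35.1 to 49.6 with S2sh7, against 318 to 396 with shLuc. Of 5 tested SMARCA2 probe sets, 4 fell in both lines on average and 1 was called in neither (0.038 log2, adjusted p = 0.632 in H1299, and 2.3e-04 log2, adjusted p = 0.998 in A549). The probe set that was brightest in H1299 fell by 0.77 log2, but its S2sh7 means with a SMARCA2 cDNA (56.5 with ATPdead, 66.9 with BRD and 76.0 with WT) lay above its shLuc mean with GFP (42.5). These are intensities on the authors' linear scale, as are all array values below, and each is a gene's brightest probe set. Differences are log2, S2sh7 minus shLuc unless said otherwise. SMARCA4 transcript also differed: its brightest probe set gave -0.40 in the H1299 average (limma adjusted p = 6.5e-09 over all probe sets) and -0.60 with GFP. The other tested SMARCA4 probe sets ran from -0.40 to -0.047 in that average, and not all were called. In A549 the brightest one gave 0.23 (limma adjusted p = 0.0428). Whether the shifts of members in H1299 go with SMARCA2 or with SMARCA4 was not tested. Array medians were 26.4 to 27.3 in H1299 and 40.1 to 41.2 in A549, replicates correlated at 0.997 to 0.998, and the median residual SD was 0.0703 log2 in H1299 and 0.108 in A549. Of the epithelial markers, KRT7, KRT8 and KRT18 were over log2 5 in every array of both lines, whereas EPCAM, KRT19 and CDH1 were over it in no H1299 array and in 7 or 8 A549 arrays. The mesenchymal VIM and CDH2 were over it in all arrays. Among markers of blood and vessel cells, PTPRC and CDH5 were over it in no array, CD14 and VWF in A549 alone, and CD3E, PECAM1 and HBB in both lines with levels up to 6.56. The ACTB control probe sets read higher at the 3' end than at the 5' end. The log2 means were 0.237 with S2sh7 and 0.247 with shLuc in H1299, and 0.191 with S2sh7 and 0.209 with shLuc in A549. For GAPDH the same 3' minus 5' means were 0.0071 and -0.0078 in H1299, and 0.146 and 0.134 in A549. The hairpins were thus close within each line, while the lines differed in GAPDH.

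Promoter sequence is shown for 4 members whose responses differed most between lines or cDNAs in what follows (CHD2, CHD3, SS18 and BCL11B). The 250 bases before the gene's start are taken from RefSeq, build GRCh38.p14, and printed 5' to 3' on the gene's strand. The array files name no build, so these places come from RefSeq alone: chr15:92900074-92900323 (plus strand) for CHD2, chr17:7888539-7888788 (plus) for CHD3, chr18:26091220-26091469 (minus) for SS18 and chr14:99272198-99272447 (minus) for BCL11B. The CHD3 window lies inside the span that RefSeq gives the gene, upstream of the start listed, and SS18 has 2 windows, of which the outermost is shown. Capitals mark any match, on either strand, to the GC box GGGCGG, the CCAAT box, the ETS core CCGGAAG, the AP-1 element TGANTCA, the E-box CACGTG or the cyclic AMP element (CRE) TGACGTCA, and no matches overlapped in these windows.
CHD2: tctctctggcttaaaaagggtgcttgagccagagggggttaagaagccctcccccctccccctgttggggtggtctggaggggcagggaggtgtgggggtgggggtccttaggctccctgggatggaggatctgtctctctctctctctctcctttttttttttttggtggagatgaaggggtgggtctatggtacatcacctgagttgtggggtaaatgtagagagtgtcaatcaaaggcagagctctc
CHD3: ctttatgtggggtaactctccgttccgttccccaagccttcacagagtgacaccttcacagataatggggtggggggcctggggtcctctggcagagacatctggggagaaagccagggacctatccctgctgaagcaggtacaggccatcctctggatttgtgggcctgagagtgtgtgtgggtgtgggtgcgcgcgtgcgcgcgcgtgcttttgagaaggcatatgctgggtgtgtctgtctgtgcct
SS18: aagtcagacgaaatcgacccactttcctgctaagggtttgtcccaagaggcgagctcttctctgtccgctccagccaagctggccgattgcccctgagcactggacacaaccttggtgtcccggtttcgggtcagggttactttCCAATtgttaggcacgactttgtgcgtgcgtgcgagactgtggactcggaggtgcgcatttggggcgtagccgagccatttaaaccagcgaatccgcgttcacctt
BCL11B: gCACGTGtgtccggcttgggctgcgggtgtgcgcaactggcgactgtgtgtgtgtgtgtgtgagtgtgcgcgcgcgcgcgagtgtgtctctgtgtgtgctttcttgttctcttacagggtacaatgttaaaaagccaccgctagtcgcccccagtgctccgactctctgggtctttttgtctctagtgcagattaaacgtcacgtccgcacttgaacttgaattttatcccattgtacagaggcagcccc

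Few of these motifs were found: SS18 has 1 CCAAT, BCL11B has 1 E-box, and CHD2 and CHD3 have no match. A window was found for 38 of the 46 members, among 27305 genes with a window of the same length, and a match in any of a gene's windows counts. These 27305 include genes that were not measured here, whereas all members passed the brightness filter, so the 2 sets are unlike. The shares below were not tested. The GC box stood in 31 of the 38 members (81.6%), against 46.2% of all genes. CCAAT stood in 18 members (47.4%), against 37% of all genes. The E-box and the ETS core each stood in 4 members (10.5%), against 7.73% of all genes for the E-box and 10.2% for the ETS core. The AP-1 element stood in 1 member, SMARCB1 (2.63% against 8.06%), and the CRE in 0 members (2.03% of all genes). A match is a run of letters and not a measured binding site.

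In H1299, S2sh7 went with small shifts in many subunit and remodeler genes. Averaged over the 4 cDNAs (12 S2sh7 arrays against 12 shLuc arrays), 28 of the 46 members passed limma's test at adjusted p under 0.05, 17 higher and 11 lower with S2sh7. That is 60.9% of members, where 50.0% of the 14695 genes tested were called, 27.1% higher and 22.9% lower. The median difference was 0.033 log2 over the members, against 0.019 over all genes. CHD9 (-0.36 log2) and CHD2 (-0.32) fell furthest and SMARCD3 (0.47) rose furthest. In bulk RNA, fewer cells of a type and less RNA per cell cannot be told apart.

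By role, and by each gene's brightest probe set, 5 of 7 core subunits rose and 0 fell. Other probe sets of SMARCC1 (-0.18) and SMARCE1 (-0.13) were called lower. Of the ATPase module 2 rose and 1 fell (of 7), and of the BAF subunits 1 rose and 2 fell (of 7). PBAF (of 4) and ncBAF (of 3) each had 1 member up and 1 down. The PBAF member down, PHF10, had another probe set called higher (0.17). Of the ISWI group 2 of 3 rose, and of the single SNF2 enzymes 3 of 4 rose. Of those 3, ATRX and HELLS had other probe sets called lower (to -0.31 and -0.12). Of the CHD family 5 of 8 fell and 1 rose. Differences between these families were not tested. Of the INO80 family 1 rose and 1 fell (of 3). Across the cDNAs taken one at a time, 9 members were called in all 4, 4 in 3, 4 in 2, 8 in 1 and 21 in 0, that is 19.6%, 8.70%, 8.70%, 17.4% and 45.7% of members, against 12.9%, 7.28%, 8.83%, 17.3% and 53.7% of all genes. The sign was the same in all 4 H1299 cDNAs for 27 of the 46 members (58.7%, against 53.3% of all genes).

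**Figure D1:**
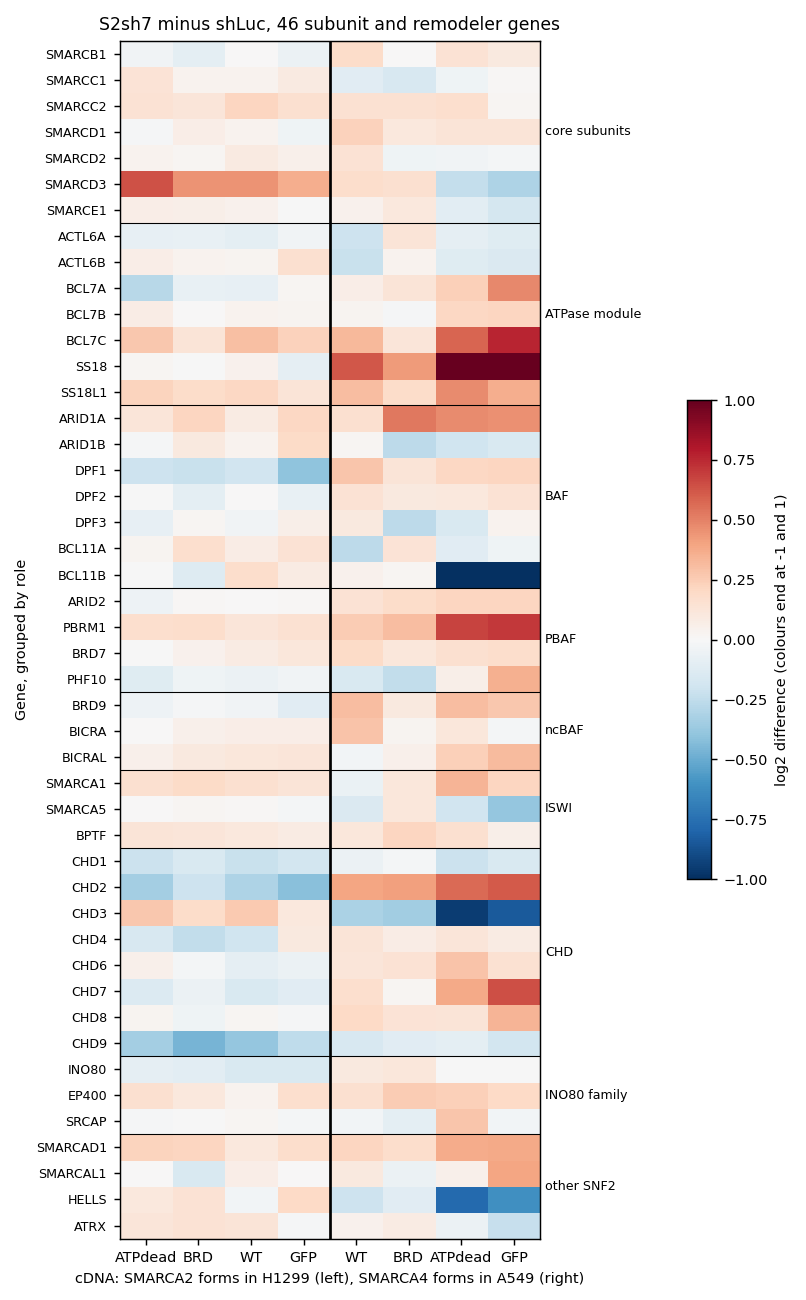
Log2 difference S2sh7 minus shLuc for each of the 46 genes (rows, by role) with each cDNA (columns, H1299 means of 3 arrays a group on the left, A549 single arrays on the right). Red is higher with S2sh7 and blue lower, with colours ending at -1 and 1, and in A549 the strongest colours (SS18, BCL11B, CHD3) lie in the ATPdead and GFP columns.

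With GFP alone, that is with no SMARCA2 cDNA put back, 15 members were called, 9 higher and 6 lower (32.6%, against 29.7% of all genes, 13.6% higher and 16.1% lower). SMARCD3, BCL7C, ARID1A and SMARCAD1 rose, and CHD2, DPF1 and CHD1 fell. Among the core subunits, 2 rose. SMARCD3 read 64.7, 81.6 and 71.5 in S2sh7 arrays, against 58.3, 54.1 and 56.5 in shLuc arrays. SMARCC2 read 415, 426 and 419 in S2sh7 arrays, against 383, 383 and 364 in shLuc arrays. S2sh7 arrays were the higher in both genes and the groups did not overlap. The difference was 0.36 log2 (SE 0.0769, adjusted p = 0.00125) for SMARCD3, a BAF60 subunit that links the complex to transcription factors. For SMARCC2, a scaffold paralog of SMARCC1, it was 0.16 log2 (SE 0.0431, adjusted p = 0.00874). The other 5 core genes lay between -0.059 and 0.091 log2 and were not called.

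In the ATPase module only BCL7C was called. BCL7C, a BCL7 paralog, read 835, 894 and 855 in S2sh7 arrays, against 755, 708 and 745 in shLuc arrays. All 3 S2sh7 arrays lay above all 3 shLuc arrays, by 0.23 log2 (SE 0.0391, adjusted p = 1.7e-04). The other 6 genes of the module ranged from -0.087 (SS18) to 0.16 (ACTL6B, near background at intensities of 19.3 to 25.5 in H1299), with adjusted p from 0.110 upward.

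The BAF-specific subunits split. ARID1A read 929, 908 and 881 in S2sh7 arrays, against 782, 781 and 792 in shLuc arrays. ARID1B read 401, 367 and 377 in S2sh7 arrays, against 304, 356 and 346 in shLuc arrays. DPF1 read 89.0, 105 and 92.7 in S2sh7 arrays, against 119.7, 124 and 136 in shLuc arrays. S2sh7 arrays were higher for both ARID1 paralogs, the DNA-binding subunits that define BAF, and lower for DPF1, a histone-reading subunit best known from neurons. In each gene the groups did not overlap. ARID1A differed by 0.21 log2 (SE 0.0326, adjusted p = 6.6e-05). DPF1 differed by -0.41 log2 (SE 0.0702, adjusted p = 1.7e-04). ARID1B differed by 0.19 log2 (SE 0.0676, adjusted p = 0.0428) in its brightest probe set, but 2 of its other probe sets gave -0.0031 and -0.027, and the call was lost without any of 4 of the 6 arrays. BCL11B was far below the filter level in H1299 arrays (5.93 to 8.82 with S2sh7 and 6.16 to 8.15 with shLuc over the 4 cDNAs).

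Of the 4 PBAF genes 0 were called with GFP, and 2 had an unadjusted p under 0.05. Of the ncBAF genes, 2 were called. BRD9 read 312, 327 and 335 in S2sh7 arrays, against 355, 350.0 and 345 in shLuc arrays. BICRAL read 157, 165 and 158 in S2sh7 arrays, against 149, 139 and 152 in shLuc arrays. BRD9, the bromodomain subunit that marks ncBAF, was lower in every S2sh7 array (-0.11 log2, SE 0.0318, adjusted p = 0.0119), and BICRAL, one of its scaffold paralogs, was higher in every one (0.12 log2, SE 0.0451, adjusted p = 0.0449). Leaving out 1 array ended the BRD9 call in 2 of 6 fits and the BICRAL call in 5 of 6.

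Outside SWI/SNF, the CHD family held 4 of the 7 remodelers called with GFP. CHD2 read 218, 211 and 209 in S2sh7 arrays, against 303, 275 and 276 in shLuc arrays. CHD1 read 410.4, 417 and 402 in S2sh7 arrays, against 481, 459 and 458 in shLuc arrays. CHD9 read 134, 147 and 139.6 in S2sh7 arrays, against 172, 162 and 167 in shLuc arrays. All 3 genes were lower in each S2sh7 array than in any shLuc array. CHD1, which binds methylated histone H3 at active genes, differed by -0.18 log2 (SE 0.0464, adjusted p = 0.00476). CHD2, its closest relative, differed by -0.42 log2 (SE 0.0431, adjusted p = 3.2e-07), and CHD9 by -0.25 log2 (SE 0.0900, adjusted p = 0.0397). CHD3, a NuRD motor, read 156, 144 and 153 in S2sh7 arrays, against 139, 139.6 and 142 in shLuc arrays. It was the higher in each S2sh7 array (0.10 log2, SE 0.0348, adjusted p = 0.0320). Leaving out 1 array ended the CHD9 call in 5 of 6 fits and the CHD3 call in 4 of 6.

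Among the remaining enzymes, EP400, the motor of the TIP60 complex, and SMARCAD1, which helps to keep heterochromatin silent after replication, rose, and INO80 fell. EP400 read 223, 239 and 226 in S2sh7 arrays, against 215, 193 and 205 in shLuc arrays. SMARCAD1 read 434, 444 and 448 in S2sh7 arrays, against 388, 396 and 387 in shLuc arrays. INO80 read 297, 329 and 287 in S2sh7 arrays, against 343, 329 and 339.8 in shLuc arrays. The groups were separate for EP400 (0.17 log2, SE 0.0424, adjusted p = 0.00511) and SMARCAD1 (0.18 log2, SE 0.0354, adjusted p = 7.0e-04). For INO80 they touched, since 1 S2sh7 array lay level with the lowest shLuc array (-0.15 log2, SE 0.0405, adjusted p = 0.00823). None of the ISWI genes was called with GFP (0 of 3), nor were SRCAP, SMARCAL1, HELLS and ATRX.

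Members were also called when a SMARCA2 cDNA was present. With ATPdead SMARCA2, 19 members were called, 11 higher and 8 lower (41.3%, against 28.4% of all genes, 16.5% higher and 11.9% lower). With BRD SMARCA2 there were 16, 9 higher and 7 lower (34.8%, against 23.7%, 11.1% higher and 12.7% lower). With WT SMARCA2 there were 14, 7 higher and 7 lower (30.4%, against 26.5%, 14.9% higher and 11.6% lower). With ATPdead, SMARCD3 read 77.4, 80.3 and 80.2 in S2sh7 arrays, against 52.1, 52.4 and 48.9 in shLuc arrays. CHD3 read 159, 163 and 157 in S2sh7 arrays, against 136, 129.9 and 132 in shLuc arrays. CHD2 read 214, 205 and 202 in S2sh7 arrays, against 263, 252 and 272 in shLuc arrays. SMARCD3 and CHD3 were higher and CHD2 lower in every S2sh7 array of that form. The SMARCD3 difference was 0.63 log2 (SE 0.0769, adjusted p = 3.3e-06), that of CHD3 0.27 log2 (SE 0.0348, adjusted p = 7.1e-06) and that of CHD2 -0.34 log2 (SE 0.0431, adjusted p = 5.1e-06). BCL7C read 835, 837 and 866 in S2sh7 arrays, against 707, 719.5 and 681 in shLuc arrays with the same cDNA, again without overlap (0.27 log2, SE 0.0391, adjusted p = 3.0e-05). Without replicate 2 of the ATPdead shLuc group, the ATPdead count was 12. Fits of only the 6 arrays compared called 7 members with BRD, 9 with WT and 9 with GFP.

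With BRD SMARCA2 the smallest p-values were those of ARID1A, SMARCAD1, SMARCD3 and CHD4. ARID1A read 856, 915 and 865 in S2sh7 arrays, against 765, 748 and 758 in shLuc arrays. SMARCAD1 read 447, 445 and 459.9 in S2sh7 arrays, against 389, 369 and 404 in shLuc arrays. Both stood higher in each S2sh7 array, by 0.21 log2 (SE 0.0326, adjusted p = 6.3e-05) for ARID1A and 0.22 log2 (SE 0.0354, adjusted p = 1.3e-04) for SMARCAD1. SMARCD3 read 69.6, 77.5 and 78.9 in S2sh7 arrays, against 57.6, 59.3 and 49.0 in shLuc arrays. CHD4 read 622, 595 and 599 in S2sh7 arrays, against 731, 717 and 700.2 in shLuc arrays. SMARCD3 was higher without overlap (0.45 log2, SE 0.0769, adjusted p = 2.2e-04), and CHD4, the main NuRD motor, was lower without overlap (-0.24 log2, SE 0.0427, adjusted p = 2.9e-04). Without replicate 3 of the BRD S2sh7 group, 10 members were called.

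With WT SMARCA2 the leading genes were BCL7C, CHD3, CHD2 and SMARCD3. BCL7C read 829.5, 821 and 831 in S2sh7 arrays, against 655, 686 and 678 in shLuc arrays. CHD3 read 153, 153 and 153 in S2sh7 arrays, against 129, 127 and 128 in shLuc arrays. These 2 were higher in each S2sh7 array, by 0.30 log2 (SE 0.0391, adjusted p = 9.6e-06) for BCL7C and 0.26 log2 (SE 0.0348, adjusted p = 1.2e-05) for CHD3. CHD2 read 228, 212 and 212 in S2sh7 arrays, against 263, 266 and 277 in shLuc arrays. SMARCD3 read 63.9, 73.2 and 66.9 in S2sh7 arrays, against 49.0, 48.5 and 51.4 in shLuc arrays. CHD2 was lower (-0.31 log2, SE 0.0431, adjusted p = 2.1e-05) and SMARCD3 higher (0.45 log2, SE 0.0769, adjusted p = 1.8e-04), in every array of the group. SS18L1 and SMARCA1, an ISWI motor, were called with each SMARCA2 form but not with GFP. SS18L1 differed by 0.23, 0.18 and 0.21 with ATPdead, BRD and WT, against 0.13 with GFP (adjusted p = 0.158). SMARCA1 differed by 0.16, 0.19 and 0.16 with those forms, against 0.13 with GFP (adjusted p = 0.0819). For neither gene was the difference between the effect with a SMARCA2 form and that with GFP called by limma's interaction test, given below.

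**Figure D2:**
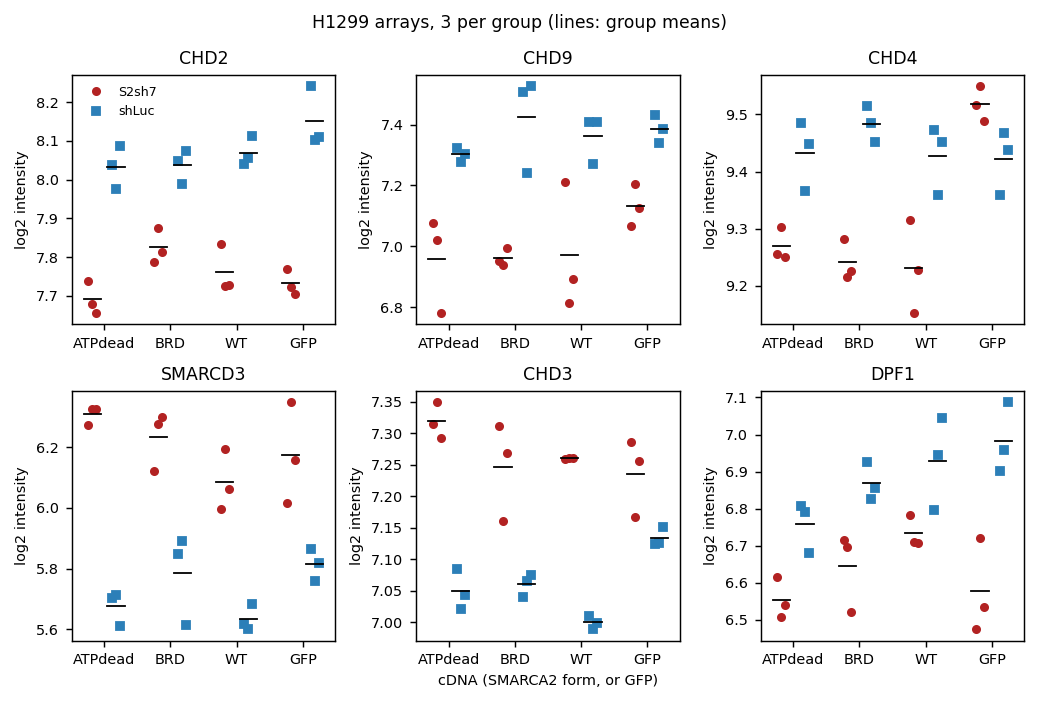
Log2 intensity of 6 genes in the 24 H1299 arrays, S2sh7 (red circles) left of shLuc (blue squares) for each cDNA, with lines at group means of 3 arrays. SMARCD3 and CHD3 are higher and CHD2, CHD9 and DPF1 lower with S2sh7 under each cDNA, while CHD4 is lower with S2sh7 under ATPdead, BRD and WT and lies above shLuc under GFP.

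Pooled over the cDNAs, 4 called members differed by at least 0.25 log2. SMARCD3 ranged from 63.9 to 81.6 (median 75.3) in S2sh7 arrays, against 48.5 to 59.3 (median 52.3) in shLuc arrays. CHD2 ranged from 202 to 235 (median 213) in S2sh7 arrays, against 252 to 303 (median 268) in shLuc arrays. CHD9 ranged from 109.9 to 148 (median 129) in S2sh7 arrays, against 151 to 184 (median 165) in shLuc arrays. In these 3 genes none of the 12 S2sh7 arrays reached into the range of the 12 shLuc arrays. The averaged difference was 0.47 log2 (SE 0.0384, adjusted p = 3.3e-09) for SMARCD3. It was -0.32 log2 (SE 0.0215, adjusted p = 2.0e-10) for CHD2 and -0.36 log2 (SE 0.0450, adjusted p = 1.2e-06) for CHD9. DPF1 ranged from 89.0 to 110.2 (median 101) in S2sh7 arrays, against 103 to 136 (median 118) in shLuc arrays, with overlap at the edges (-0.26 log2, SE 0.0351, adjusted p = 4.2e-06). Also without overlap of the 24 arrays were BCL7C (0.23), CHD3 (0.20), SMARCAD1 (0.18) and SMARCC2 (0.16). The gap between lowest S2sh7 and highest shLuc array was narrow for BCL7C (764.7 against 763.1), SMARCAD1 (404.7 against 403.9) and CHD3 (143.1 against 142.1). The share of all genes without overlap is not given here, so the lack of overlap only describes these genes.

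The remaining called members moved by less. Core subunits SMARCC1 (0.074), SMARCD2 (0.049) and SMARCE1 (0.040) were higher by amounts near the size of the residual SD. Of the module and BAF genes, SS18L1 (0.18) and ARID1A (0.16) rose and ACTL6A (-0.073), an actin-related subunit, and DPF2 (-0.043) fell. PBRM1 (0.16) and BICRAL (0.10) rose, and PHF10 (-0.066) and BRD9 (-0.052) fell. Among other remodelers, SMARCA1 (0.16), BPTF (0.11), EP400 (0.12), HELLS (0.11) and ATRX (0.10) rose. BPTF is the large subunit of NURF, HELLS supports DNA methylation and ATRX deposits histone H3.3 in heterochromatin. CHD1 (-0.19), CHD4 (-0.13), CHD7 (-0.12), the gene of CHARGE syndrome, and INO80 (-0.12) fell. The 18 members not called were SMARCB1, SMARCD1, ACTL6B, BCL7A, BCL7B, SS18, ARID1B, DPF3, BCL11A, BCL11B, ARID2, BRD7, BICRA, SMARCA5, CHD6, CHD8, SRCAP and SMARCAL1. Their differences ran from -0.10 (BCL7A) to 0.10 (BCL11A).

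CHD4 was the 1 member whose knockdown effect with a SMARCA2 cDNA was called different from that with GFP. With WT it read 637, 569 and 599 in S2sh7 arrays, against 710.4, 657 and 700.0 in shLuc arrays. With GFP it read 732, 749.6 and 718 in S2sh7 arrays, against 657, 708 and 693 in shLuc arrays. The S2sh7 arrays were thus the lower ones with WT and the higher ones with GFP, and neither pair overlapped. The GFP difference itself was not called (0.10, adjusted p = 0.0985). By limma's interaction test the effect with WT minus that with GFP was -0.29 log2 (SE 0.0603, adjusted p = 0.0143), and with BRD minus GFP it was -0.34 log2 (SE 0.0603, adjusted p = 0.00850). For ATPdead it was -0.26 log2 (adjusted p = 0.130) and was not called. CHD4 was the 1 member called in the WT interaction, where 2.28% of all genes were called, 1.82% higher and 0.456% lower. It was also the 1 member in the BRD interaction, where 0.558% of all genes were called, 0.388% higher and 0.170% lower. In the ATPdead interaction 0 members were called by limma (0.0612% of all genes, 0.0476% higher and 0.0136% lower), and 4 members had an unadjusted p under 0.05.

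The WT call was lost when 1 GFP array with shLuc (replicate 1) was left out, when only the arrays compared were fitted and when probe sets were averaged, and a second CHD4 probe set gave -0.022 for WT and 0.014 for BRD. A further one gave -0.20 and -0.40 for the same 2 contrasts, with adjusted p of 0.357 and 0.0783 over all probe sets.

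Set side by side under S2sh7, WT against GFP gave 1 called member, again CHD4 (-0.29 log2, SE 0.0427, adjusted p = 2.8e-04), where 5.06% of all genes were called, 3.35% higher and 1.70% lower. This comparison uses S2sh7 arrays that also enter the interaction above. Its count was 0 when only these arrays were fitted, 2 with a filter at log2 6 or with trend and robust settings, and 3 with averaged probe sets or repeated quantile normalization. ATPdead against WT gave 0 (3.02% of all genes, 1.61% higher and 1.41% lower, with 9 members at an unadjusted p under 0.05), and BRD against WT gave 0 (0.0612% of all genes, 0% higher and 0.0612% lower, with 3 members at an unadjusted p under 0.05), both by limma. With trend and robust settings in limma each of these gave 1, as did the ATPdead interaction. Under shLuc, WT against GFP gave 1 member, CHD3, at 129, 127 and 128 with WT, against 139, 139.6 and 142 with GFP. The CHD3 groups did not overlap (-0.13 log2, SE 0.0348, adjusted p = 0.0457, where 2.74% of all genes were called, 0.925% higher and 1.82% lower), but the call was lost when any 1 of the 6 arrays was left out, with no filter, after repeated quantile normalization and when only these arrays were fitted. The WT against GFP count under S2sh7 was 2 without replicate 3 of GFP or without replicate 1 of WT.

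In A549 the averaged shifts of called members reached 0.84 log2 (SS18), against 0.47 (SMARCD3) in H1299, a difference in reach that was not itself tested. Over the 4 pairs of arrays, 11 of the 46 members were called, 10 higher and 1 lower with S2sh7 (23.9%, against 21.1% of all genes). Higher calls made up 21.7% of members and 12.0% of all genes, and lower calls 2.17% and 9.06%. The median difference was 0.11 log2 over the members and 0.0057 over all genes. SS18, CHD2 and PBRM1 rose most and CHD3 fell. Each A549 group is 1 array, so the error is the departure of the 4 pairs from a common effect, on 3 residual degrees of freedom. The calls rest on all 4 pairs: without the WT pair 1 member was called, without the BRD pair 4, and without the ATPdead or the GFP pair 0. Each of the 11 calls was lost in 3 or 4 of these fits, with no change of sign. With no filter on low genes the count was 7.

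Of the ATPase module 3 of 7 rose. SS18 read 581, 528, 899 and 869 in the S2sh7 arrays with WT, BRD, ATPdead and GFP, against 377, 394, 404 and 392 in the shLuc arrays. BCL7C read 581, 548, 713 and 807 in the S2sh7 arrays with WT, BRD, ATPdead and GFP, against 463, 503, 476 and 475 in the shLuc arrays. SS18L1 read 204, 195, 228 and 214 in the S2sh7 arrays with WT, BRD, ATPdead and GFP, against 165, 172, 164 and 166 in the shLuc arrays. In all 3 genes each S2sh7 array was above all 4 shLuc arrays, and for SS18 and BCL7C the ATPdead and GFP arrays were the highest. SS18, the subunit fused in synovial sarcoma, differed by 0.84 log2 (SE 0.147, adjusted p = 0.0259). BCL7C differed by 0.45 log2 (SE 0.116, adjusted p = 0.0491) and SS18L1, the SS18 paralog also named CREST, by 0.33 log2 (SE 0.0661, adjusted p = 0.0307). All 4 tested SS18 probe sets were called, from 0.37 to 0.84.

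Of the form-specific subunits 4 rose. ARID1A read 478, 525, 535 and 528 in the S2sh7 arrays with WT, BRD, ATPdead and GFP, against 428, 363, 385 and 385 in the shLuc arrays. PBRM1 read 490.1, 495, 643 and 636 in the S2sh7 arrays with WT, BRD, ATPdead and GFP, against 411, 399.7, 403 and 389 in the shLuc arrays. S2sh7 was higher in each of the 4 pairs, by 0.41 log2 (SE 0.0792, adjusted p = 0.0300) for ARID1A and 0.49 log2 (SE 0.102, adjusted p = 0.0335) for PBRM1, the bromodomain subunit of PBAF. BRD9 read 285, 252, 303 and 287 in the S2sh7 arrays with WT, BRD, ATPdead and GFP, against 230.2, 236, 244 and 238 in the shLuc arrays. DPF1 read 79.9, 73.3, 82.1 and 86.9 in the S2sh7 arrays with WT, BRD, ATPdead and GFP, against 66.0, 67.0, 71.0 and 75.0 in the shLuc arrays. BRD9 arrays did not overlap (0.25 log2, SE 0.0616, adjusted p = 0.0466), while the lowest S2sh7 array of DPF1 lay under the highest shLuc array (0.21 log2, SE 0.0532, adjusted p = 0.0495). None of the 7 core subunits was called (0 of 7, 1 with an unadjusted p under 0.05), with differences from -0.074 (SMARCC1) to 0.15 (SMARCD1).

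Among other remodelers CHD2, EP400 and SMARCAD1 rose and CHD3 fell. CHD2 read 239, 233, 262 and 290.5 in the S2sh7 arrays with WT, BRD, ATPdead and GFP, against 182, 175, 177 and 190.4 in the shLuc arrays. CHD3 read 312, 301, 193 and 209.6 in the S2sh7 arrays with WT, BRD, ATPdead and GFP, against 389, 382, 371 and 376 in the shLuc arrays. Both sets of arrays were apart, with S2sh7 above shLuc for CHD2 (0.50 log2, SE 0.0626, adjusted p = 0.0160) and below it for CHD3 (-0.61 log2, SE 0.132, adjusted p = 0.0352). EP400 read 352, 368, 363 and 359 in the S2sh7 arrays with WT, BRD, ATPdead and GFP, against 316, 309, 308 and 314 in the shLuc arrays. SMARCAD1 read 458, 428, 523 and 479.6 in the S2sh7 arrays with WT, BRD, ATPdead and GFP, against 393, 379.5, 405 and 369.6 in the shLuc arrays. S2sh7 was the higher in every pair for EP400 (0.21 log2, SE 0.0510, adjusted p = 0.0434) and for SMARCAD1 (0.28 log2, SE 0.0618, adjusted p = 0.0359). Of all members, 25 of the 46 had the same sign in all 4 A549 pairs (54.3%, against 50.1% of all genes).

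In A549 the SMARCA4 forms that keep the ATPase (WT and BRD) went with smaller shifts of several members than ATPdead or GFP. A SMARCA4 probe set, picked because it followed the cDNA, read 236, 240, 151 and 31.3 with WT, BRD, ATPdead and GFP under S2sh7. Under shLuc it read 99.8, 121, 116 and 23.6. The SMARCA4 probe set brightest over all arrays read 65.2, 62.8, 68.3 and 66.9 under S2sh7. Whether the shifts go with transcript level or with the ATPase was not tested. The knockdown effect with ATPase minus that without was called for 9 members, 4 higher and 5 lower (19.6%, against 23.9% of all genes, 12.0% higher and 11.9% lower), so members were not called more often than other genes. This fit takes the 8 arrays as 4 classes of 2 (hairpin, with or without ATPase) on 4 residual degrees of freedom and does not pair arrays by cDNA. With the cDNA pair as a block, on 2 residual degrees of freedom, 7 members were called (21.8% of all genes), and the calls of PHF10 (adjusted p = 0.0631) and CHD7 (adjusted p = 0.0570) were lost. BCL11B read 62.7, 63.4, 24.5 and 27.4 in the S2sh7 arrays with WT, BRD, ATPdead and GFP, against 60.9, 62.6, 72.5 and 84.6 in the shLuc arrays. BCL11B, a zinc-finger factor of T cell and neuron development that joins BAF, was low in the ATPdead and GFP arrays with S2sh7 and between 60.9 and 84.6 elsewhere. Its knockdown difference was 0.041 with WT and 0.018 with BRD, against -1.57 with ATPdead and -1.62 with GFP. The difference of these effects was 1.63 log2, and a second BCL11B probe set gave 1.31. The 2 low arrays lie under the filter level and under the array medians, and the gene passed the filter only through the arrays in which it is high, so its place among the 9 is a description and no test. With those 2 arrays set at the filter level the difference is 1.32. The averaged effect of BCL11B was not called (-0.78, adjusted p = 0.163).

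From the array values given above, SS18 shifted by 0.62 with WT and 0.42 with BRD, against 1.15 with ATPdead and 1.15 with GFP. CHD3 shifted by -0.32 with WT and -0.35 with BRD, against -0.95 with ATPdead and -0.84 with GFP. PBRM1 shifted by 0.25 with WT and 0.31 with BRD, against 0.68 with ATPdead and 0.71 with GFP. In each gene the shifts with ATPdead and GFP were the larger ones. The interaction was -0.63 log2 (SE 0.0941, adjusted p = 0.00277) for SS18 and 0.56 log2 (SE 0.0882, adjusted p = 0.00343) for CHD3. It was -0.41 log2 (SE 0.0773, adjusted p = 0.00742) for PBRM1. BCL7C shifted by 0.33 with WT and 0.12 with BRD, against 0.58 with ATPdead and 0.76 with GFP (-0.45 log2, SE 0.111, adjusted p = 0.0227).

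The other 4 called members were SMARCD3, PHF10, CHD7 and HELLS. HELLS read 973, 1085, 648 and 633 in the S2sh7 arrays with WT, BRD, ATPdead and GFP, against 1123, 1177, 1111 and 968 in the shLuc arrays. CHD7 read 176, 172, 225 and 241 in the S2sh7 arrays with WT, BRD, ATPdead and GFP, against 157, 169, 173 and 155 in the shLuc arrays. HELLS was low with S2sh7 in the ATPdead and GFP arrays, and CHD7 was high in the same arrays. The interaction was 0.53 log2 (SE 0.120, adjusted p = 0.0155) for HELLS and -0.42 log2 (SE 0.109, adjusted p = 0.0278) for CHD7. SMARCD3 read 201, 212, 135 and 151 in the S2sh7 arrays with WT, BRD, ATPdead and GFP, against 178, 190.2, 159.9 and 187 in the shLuc arrays. PHF10 read 366, 357, 439 and 530.1 in the S2sh7 arrays with WT, BRD, ATPdead and GFP, against 407, 423, 421 and 415 in the shLuc arrays. SMARCD3 was lower with S2sh7 with ATPdead and GFP and higher with WT and BRD (0.44 log2, SE 0.130, adjusted p = 0.0438). PHF10, a PBAF subunit, was lower with S2sh7 with WT and BRD and higher with ATPdead and GFP (-0.41 log2, SE 0.124, adjusted p = 0.0493). Leaving out each of the 4 pairs in turn gave 3 to 8 called members, 4 without GFP, 3 without WT or without BRD and 8 without ATPdead. The calls of SS18 and CHD3, and that of BCL11B with the limit given above, stood in all 4 of these fits, and those of the other 6 were lost in 3 of 4. Averaged over hairpins, SMARCA4 with ATPase against without gave 0 called members and 0 called genes by limma (0% of all genes), with 4 members and 1714 genes at an unadjusted p under 0.05. This contrast comes from the same fit of 4 pairs as the averaged knockdown. Knockdown effects that differ between cDNAs widen the error of both, so a gene not called there is not shown to be unchanged.

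**Figure D3:**
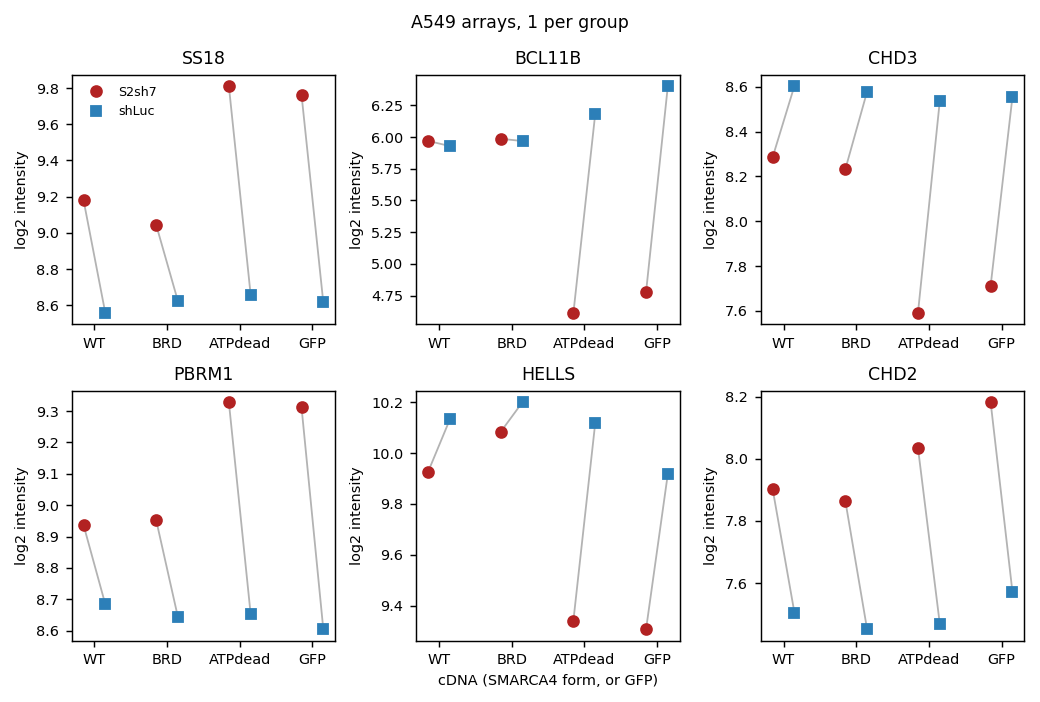
Log2 intensity of 6 genes in the 8 A549 arrays, S2sh7 (red circles) left of shLuc (blue squares), with a line joining each pair (1 array a point). For SS18, BCL11B, CHD3, PBRM1 and HELLS the hairpins are farther apart with ATPdead and GFP than with WT and BRD, and CHD2 is higher with S2sh7 in all 4 pairs.

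Called in both lines were 10 members (21.7%, against 13.1% of all genes), 6 in the same direction (13.0%, against 8.34%) and 4 in opposite directions (8.70%, against 4.76%). Whether these shares differ was not tested. ARID1A, BCL7C, PBRM1, SS18L1, SMARCAD1 and EP400 were higher with S2sh7 in H1299 and in A549. CHD2, DPF1, BRD9 and CHD3 went opposite ways. BRD9 differed by only -0.052 in H1299. A second DPF1 probe set gave 0.040 in A549, and with p-values adjusted over all probe sets no DPF1 probe set was called there. The A549 calls of DPF1, BRD9 and CHD3 were lost whichever pair was left out, and that of CHD2 in 3 of 4 fits. Over its 4 cDNAs in H1299, CHD2 ranged from 202 to 235 (median 213) with S2sh7, against 252 to 303 (median 268) with shLuc. The A549 arrays read 233 to 290.5 (median 251) with S2sh7, against 175 to 190.4 (median 179) with shLuc. CHD2 was thus lower with S2sh7 in all H1299 groups and higher in all 4 A549 pairs. PBRM1 had 380.4 to 451 (median 417) with S2sh7, against 349 to 392 (median 377) with shLuc, in H1299, where the arms overlapped (0.16 log2, SE 0.0292, adjusted p = 1.7e-04). SS18L1 had 122 to 139.8 (median 128) with S2sh7, against 103 to 123 (median 114) with shLuc, in H1299, also with overlap (0.18 log2, SE 0.0322, adjusted p = 7.4e-05).

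The difference between the lines was tested directly, as the H1299 effect minus the A549 effect, each with its own limma standard error. It was called for 13 members, 3 higher and 10 lower (28.3%, against 28.3% of all genes, 12.8% higher and 15.5% lower), so the members differed between lines as often as other genes did. CHD2 (-0.82 log2, SE 0.0662, adjusted p = 0.00113) and SS18 (-0.84 log2, SE 0.149, adjusted p = 0.0159) had the largest negative differences and CHD3 (0.82 log2, SE 0.133, adjusted p = 0.0133) the largest positive one. The family with most calls was CHD, with 6 of 8, adding CHD4 (-0.23), CHD6 (-0.20), CHD7 (-0.42) and CHD9 (-0.22). CHD9 fell in H1299 (-0.36) and was at -0.14 in A549 (adjusted p = 0.103). SMARCD3 (0.53) and HELLS (0.53) were the other positive ones, and DPF1 (-0.46), BCL7A (-0.33), BRD9 (-0.30) and ARID2 (-0.20) were negative. For BCL7A a second probe set rose in both lines, by 0.22 in H1299, where it was called, and by 0.28 in A549. Leaving out each A549 pair in turn left 2 to 8 calls, 2 without ATPdead or without GFP, 7 without WT and 8 without BRD. Since line and batch coincide, a line difference and a batch difference cannot be told apart. The cDNAs differ as well, SMARCA2 forms in H1299 and SMARCA4 forms in A549, so only the GFP groups are alike. With GFP, CHD4 differed by 0.097 log2 in H1299 and 0.085 in A549, and CHD9 by -0.25 and -0.18. CHD2 differed by -0.42 and 0.61 with GFP, and CHD3 by 0.10 and -0.84. The line difference with GFP alone was not tested.

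**Figure D4:**
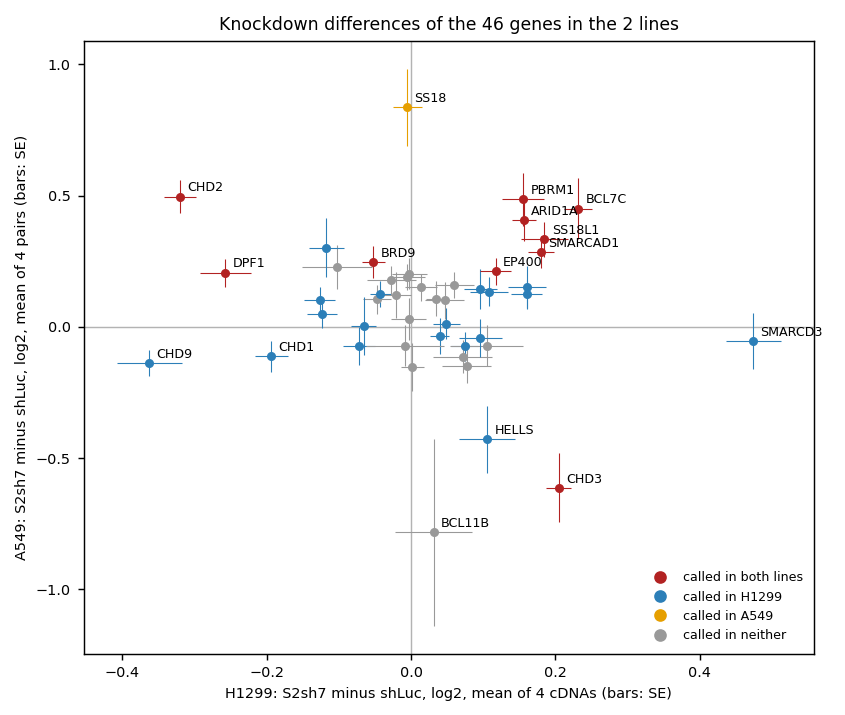
Averaged log2 difference S2sh7 minus shLuc in H1299 (horizontal axis, 4 cDNAs) and in A549 (vertical axis, 4 pairs) for the 46 genes, with bars of 1 standard error and colours for the line in which a gene was called. CHD2 and DPF1 lie upper left, CHD3 lower right, and BCL7C, PBRM1 and ARID1A upper right, while SS18 lies near 0 in H1299 and at 0.84 in A549.

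Several members are read by more than 1 probe set, and those did not always move together. Of 31 members with more than 1 tested probe set, 5 had calls in both directions in the H1299 average (SMARCC1, SMARCE1, PHF10, HELLS and ATRX) and 0 did in A549, with p-values adjusted over all probe sets. For ATRX the brightest probe set gave 0.10 in H1299, while 2 others gave -0.31 and -0.31. PHF10 gave -0.066 in the one used and 0.17 in the other, which was as bright in H1299. The ARID1B probe set used, of a type whose probes can match other transcripts, gave -0.15 in A549 and was not called, whereas 3 others rose there by 0.48, 0.79 and 0.94. For CHD2, 3 of 4 tested probe sets fell in H1299 and 3 of 4 rose in A549, and both CHD3 probe sets rose in H1299 and fell in A549. Probe sets of a gene can read different transcript ends or isoforms, and which of them did so here was not tested.

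**Figure D5:**
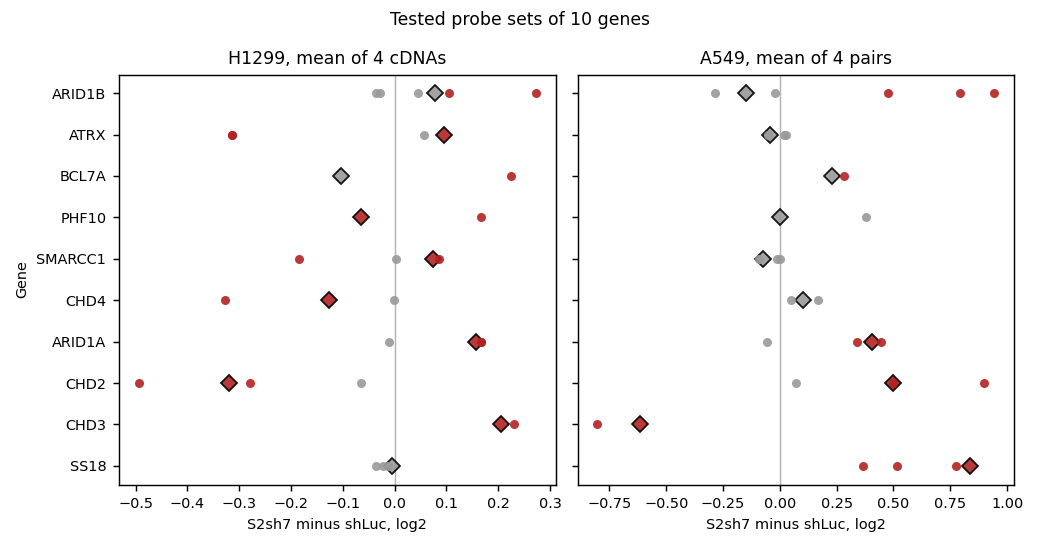
Log2 difference S2sh7 minus shLuc of every tested probe set of selected genes, in H1299 (left) and A549 (right), with black-edged diamonds for the brightest probe set used elsewhere and red for adjusted p under 0.05. Both CHD3 probe sets are above 0 in H1299 and below 0 in A549, and all SS18 probe sets are above 0 in A549, while ATRX, PHF10 and SMARCC1 have called probe sets on both sides of 0 in H1299.

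Partner proteins of the same remodelers, a list of 52 genes with 51 tested, were read for context. In the H1299 average 31 were called, 21 higher and 10 lower, beside the 50.0% of all genes. The smallest p-values were those of INO80C, an INO80 subunit, at -0.29 (adjusted p = 1.5e-10), and RBBP4, a histone-binding protein of NuRD, at 0.27 (adjusted p = 1.7e-10). The NuRD deacetylase HDAC1 was at 0.17 (adjusted p = 2.6e-10) and CDCA7, the partner of HELLS, at 0.20 (adjusted p = 2.4e-09). NuRD partners numbered 6 higher and 2 lower of 12, and INO80, SRCAP and TIP60 partners 10 higher and 6 lower of 27. In A549 10 partners were called, 9 higher and 1 lower, beside the 21.1% of all genes. INO80C again fell, at -1.03 (adjusted p = 0.0109). DAXX, the histone chaperone that works with ATRX, rose at 0.46 (adjusted p = 0.0228), and 2 subunits of the INO80 and TIP60 complexes, TFPT at 0.48 (adjusted p = 0.0281) and MRGBP at 0.53 (adjusted p = 0.0257), also rose.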

How the data were processed

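RNA of 2 cell lines was read on HG-U133 Plus 2.0 arrays, and the intensity per probe set was deposited by the authors after robust multi-array averaging (RMA), per the submitters' processing notes, which also name limma; versions are not given. The deposited intensity values were linear, not log2 as the design had assumed, so log2 was taken with no pseudocount. The lines lie on different overall levels (array medians) and were tested apart. No genome build is given in the sources used here.

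Of 54675 probe sets, 41097 carry 1 gene symbol, 1801 several and 11777 none; only those with 1 symbol were used, giving 19775 genes. A gene was tested if log2 intensity passed 5 in at least 3 of 32 arrays (14695 genes, 74.3%), through its probe set with the highest mean log2. limma 3.58.1 in R 4.3.3 fitted all 24 H1299 arrays with a mean per group (16 residual degrees of freedom). The 8 A549 arrays were fitted as 4 pairs with 3 residual degrees of freedom for the averaged effect, and as S2sh7 or shLuc with or without an ATPase-competent SMARCA4 with 4 for the interaction; a fit with the cDNA pair as a block was added after the data were seen. P-values were adjusted by Benjamini-Hochberg over all genes tested, with calls at 0.05. The difference between lines was added after the data were seen; it is the difference of the 2 limma estimates with both standard errors and Welch-Satterthwaite degrees of freedom. The R packages jsonlite 2.0.0 and data.table (version 1.17.8) read the files, and promoter windows and figures were made with Python 3.11.15, pandas 2.3.3 and matplotlib 3.10.9. The fits were tested on simulated data.

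Members and lists were chosen with earlier results of these data known. All arrays' values are given for members called with GFP or in A549, or changed by 0.25 or more in the H1299 average, and for the 4 smallest adjusted p-values of each other comparison; the partner genes named are likewise the 4 smallest. The alternatives tried were averaged probe sets, no filter or log2 over 6, repeated quantile normalization, median centring, trend and robust settings, only the arrays compared, a replicate block, other probe sets, and leaving out each array or pair. Whether replicate numbers pair the samples was checked by the correlation of deviations from group means, which ran from -0.186 to 0.099, so they were not treated as pairs.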

Additional observations from a re-analysis of the deposited data

Results flagged for a closer look

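For each gene given here, with the limit on BCL11B below, the difference between 2 knockdown effects was itself tested and passed at adjusted p under 0.05 by limma. In H1299 the effect on CHD4 with WT SMARCA2 minus that with GFP was -0.29 log2, and with BRD SMARCA2 minus GFP it was -0.34 log2.

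In A549 the effect with an ATPase-competent SMARCA4 (WT and BRD) minus that without (ATPdead and GFP) was positive for BCL11B (1.63), CHD3 (0.56), HELLS (0.53) and SMARCD3 (0.44), and negative for SS18 (-0.63), BCL7C (-0.45), CHD7 (-0.42), PBRM1 (-0.41) and PHF10 (-0.41), all in log2. The BCL11B value is a description only: its 2 low arrays lie under the filter level, and with them set at that level it is 1.32.

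The averaged H1299 effect minus the averaged A549 effect was positive for CHD3 (0.82), HELLS (0.53) and SMARCD3 (0.53). It was negative for SS18 (-0.84), CHD2 (-0.82), DPF1 (-0.46), CHD7 (-0.42), BCL7A (-0.33), BRD9 (-0.30), CHD4 (-0.23), CHD9 (-0.22), ARID2 (-0.20) and CHD6 (-0.20). The BCL7A value rests on its brightest probe set, and a second one gave 0.22 in H1299 and 0.28 in A549. Line, batch and the kind of ATPase cDNA (SMARCA2 or SMARCA4) cannot be told apart in these differences.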

How the results depend on the processing

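Across the alternatives, the 63 results on named members kept their direction except through 8 single probe sets. Among called members not in that count, other probe sets ran opposite in the H1299 average for ATRX (-0.31), SMARCC1 (-0.18), PHF10 (0.17), SMARCE1 (-0.13) and HELLS (-0.12). The replicate block called 15 members with GFP, 13 with WT, 16 with BRD, 18 with ATPdead and 28 on average, and it changed no other count; the replicate numbers did not pair the samples (each array was closest to its own number in 0 of 3 cases with GFP and 1 of 3 with each other cDNA). Averaging probe sets gave 0 members in the WT interaction and 3 for WT against GFP under S2sh7. With no filter there were 7 in the A549 knockdown and 0 for WT against GFP under shLuc. A filter at log2 6 gave 2 for WT against GFP under S2sh7. Repeated quantile normalization gave 3 under S2sh7 and 0 under shLuc for the same pair. Trend and robust settings gave 2 for WT against GFP under S2sh7, and 1 each for the ATPdead interaction, ATPdead against WT and BRD against WT. Fitting only the arrays compared gave 9 with GFP, 9 with WT, 7 with BRD, and 0 each for the WT interaction and for WT against GFP under either hairpin; fewer arrays then estimate the spread. Leaving out 1 array gave 12 to 16 with ATPdead, 10 to 13 with BRD, 0 to 1 for the WT interaction, 1 to 2 for WT against GFP under S2sh7 and 0 to 0 under shLuc. Leaving out 1 A549 pair gave 0 to 4 members in the knockdown, 3 to 8 in the interaction (7 with the cDNA pair as a block, where PHF10 and CHD7 lost their calls) and 2 to 8 for H1299 minus A549. Single probe sets turned the direction of ARID1B with GFP (-0.0031 and -0.027), CHD2 with WT (0.19), CHD4 with BRD (0.0064) and in the BRD interaction (0.014), EP400 in the H1299 average (-0.072), and ARID1A in the H1299 average (-0.010) and in A549 (-0.055); the cause was not tested. Signal over background limits BCL11B and ACTL6B in H1299, and BCL11A, which passed the filter level in 8 of 24 H1299 arrays. In A549 it also limits ACTL6B, at 29.5 to 38.5 under the array medians of 40.1 to 41.2, and DPF3, at 33.4 to 43.3.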

Other observations

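Levels of the members in the lines were set side by side apart from any knockdown. After quantile normalization over all 32 arrays, which sets aside the different scales of the lines, 16 of the 46 members had every H1299 array above every A549 array, 10 had every one below, and 20 overlapped. Those are 34.8%, 21.7% and 43.5% of members, against 26.5%, 28.1% and 45.4% of all genes tested. These are levels of a line with its batch and its cDNAs, which cannot be told apart. They include the S2sh7 arrays, so they are not levels without knockdown, and they carry no test. The genes named next were chosen after their values were seen.

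SMARCE1, a core subunit that binds DNA through its HMG box, averaged 8.99 in H1299 and 10.65 in A549 (log2). SMARCD3, which rose with S2sh7 in H1299, averaged 6.09 in H1299 and 7.13 in A549, and CHD9, which fell there, averaged 7.29 in H1299 and 8.64 in A549. On the other side, SMARCB1, the core subunit lost in rhabdoid tumours, averaged 8.72 in H1299 and 7.36 in A549. ARID2, the subunit that marks PBAF, averaged 8.70 in H1299 and 7.38 in A549.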
